A study of Mus musculus with 60 samples.

Results

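The 10 genes described here, Acta2, Actg2, Tagln, Cnn1, Myl9, Tpm1, Tpm2, Cald1, Myh11 and Des, encode parts of the contractile apparatus of myofibroblasts and smooth muscle. They were taken by name and make up 10 of the 56980 gene IDs counted in each of 2 RNA-seq tables. All 10 were found and all 10 passed the filter on low counts in both tables, so each has a value in every one of the 60 libraries of mouse fibroblasts, which fall into 20 groups of 3.

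A myofibroblast is a fibroblast that has built smooth muscle type stress fibres, and it closes wounds and stiffens scarred tissue. Transforming growth factor beta (TGFb) is the classical inducer of this state, and serum response factor (Srf) with its myocardin-related partners drives most of the contractile genes through a short DNA element, the CArG box. Tail tip fibroblasts in culture are known to take on part of this state on stiff plastic, and loss of mesenchymal genes is a known early event when fibroblasts are reprogrammed by Oct4, Sox2, Klf4 and c-Myc (OSKM).

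The reprogramming table held 36 libraries of tail tip fibroblasts (Fbs). D/KO Fbs (genotype 4FJ_ERCC1_(d/-), a male of 8 weeks) carry 1 truncated and 1 deleted allele of Ercc1, a DNA repair nuclease subunit, and WT 4F Fbs (genotype 4FJ_(+/-)_OCT4-GFP, a female of 22 weeks) do not. Both lines carry a doxycycline-driven OSKM cassette and were sampled at day 0 and after 2 and 4 days of doxycycline at 2 µg/ml, each with or without VC, which is ascorbic acid at 50 µg/ml and the GSK3 inhibitor CHIR-99021 at 3 µM. The inhibitor table held 24 libraries with no doxycycline. Tail tip D/KO Fbs without the cassette (ERCC1_(d/-), a female of 4 weeks) were left as control or given Repsox or A83-01, which block the TGFb type I receptor ALK5, Vactosertib, which the study describes as blocking both ALK5 and the BMP receptor ALK2, or DMH-1, which blocks ALK2. For the inhibitors the study's text gives 0.1 µM for Repsox and Vactosertib, 1 µM for A83-01 and DMH-1, and 3 days, the doses being stated for its methylation samples, while the labels of the RNA libraries give no dose. The same table held untreated WT Fbs from tail tip and from skin (ERCC1_(+/+)_WT, females of 14 weeks) and WT 4F tail tip Fbs labelled TGFB, for which no untreated group of that line was in the table. In the time course genotype, sex, age and line change together, and in the inhibitor table, where all groups are female, genotype and age do, so their parts cannot be told apart. Nothing in the labels says that the 3 libraries of a group came from separate animals or cultures, so each p-value measures the spread between libraries, which may be technical.

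Libraries of the reprogramming table held 16538374 to 18484951 counts each, while the range was 17102639 to 30599138 in the inhibitor table. Levels are given as CPM, the counts of a gene relative to the TMM-scaled library total. The targeted gene Ercc1 gave 8.03 to 18.6 CPM across 18 D/KO libraries against 16.8 to 29.1 CPM across 18 WT 4F libraries in the time course. In the other table its range for 15 D/KO libraries (13.2 to 23.5 CPM) overlapped that for 6 WT tail tip and skin libraries (13.3 to 30.2 CPM). Fibroblast markers were high in all 20 groups, with 9 of 9 at 1 CPM or more. Markers of other cell types were also detected, and which cells their RNA came from was not tested. The summed level of 5 endothelial markers was 585 to 709 CPM in D/KO Fbs at day 0 against 14.5 to 17.3 CPM in WT 4F Fbs at day 0, and that of 7 markers of mural cells, which use the same contractile genes, was 917 to 1024 CPM against 589 to 642 CPM. Pdgfrb, which fibroblasts express as well, made up most of the mural sum at day 0, and the other 6 markers summed to 269 to 294 CPM against 46.0 to 51.0 CPM. Fewer contractile cells and less RNA per cell cannot be told apart in such bulk samples. In 2 groups 1 library stood apart by transcript length: relative to their group, short genes exceeded long genes by 0.93 (log2) in replicate 1 of WT skin and by 0.80 in replicate 2 of Repsox, while the 18 libraries of the other 6 groups of the inhibitor table ran from -0.52 to 0.39 and the 36 reprogramming libraries from -0.36 to 0.38.

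The promoters of 4 members with different roles are shown because these genes moved together in most comparisons that follow. They are the 250 bases before and 50 after the start of Acta2 (chr19:34255324-34255623, minus strand), Cnn1 (chr9:22099003-22099302, plus strand), Myl9 (chr2:156775214-156775513, plus strand) and Tpm1 (chr9:67049164-67049463, minus strand), from RefSeq on GRCm38.p6, and capitals mark a CArG box of the strict form only.
Acta2: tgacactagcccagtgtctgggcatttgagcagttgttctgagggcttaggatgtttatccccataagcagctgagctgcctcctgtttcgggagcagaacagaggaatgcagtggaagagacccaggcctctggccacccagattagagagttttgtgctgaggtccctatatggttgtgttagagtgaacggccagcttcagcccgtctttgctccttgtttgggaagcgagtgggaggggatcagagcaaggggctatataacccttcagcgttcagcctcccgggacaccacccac
Cnn1: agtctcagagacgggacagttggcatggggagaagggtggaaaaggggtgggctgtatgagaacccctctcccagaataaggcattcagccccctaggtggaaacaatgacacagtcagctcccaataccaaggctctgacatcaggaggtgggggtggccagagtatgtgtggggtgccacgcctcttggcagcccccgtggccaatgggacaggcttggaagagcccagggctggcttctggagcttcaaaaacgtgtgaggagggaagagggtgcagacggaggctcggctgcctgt
Myl9: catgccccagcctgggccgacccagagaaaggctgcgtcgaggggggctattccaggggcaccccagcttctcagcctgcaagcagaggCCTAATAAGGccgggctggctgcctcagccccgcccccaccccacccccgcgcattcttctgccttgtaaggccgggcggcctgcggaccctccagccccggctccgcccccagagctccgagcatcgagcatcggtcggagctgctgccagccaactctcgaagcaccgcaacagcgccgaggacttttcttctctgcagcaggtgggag
Tpm1: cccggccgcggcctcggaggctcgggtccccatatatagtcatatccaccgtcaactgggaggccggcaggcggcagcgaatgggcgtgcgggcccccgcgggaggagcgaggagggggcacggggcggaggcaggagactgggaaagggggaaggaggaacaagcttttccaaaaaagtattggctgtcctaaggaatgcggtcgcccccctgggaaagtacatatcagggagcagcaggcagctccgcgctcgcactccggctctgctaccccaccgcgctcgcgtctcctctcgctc
Of the 7 members with an entry (Tagln, Actg2 and Myh11 had none), the strict CArG box (CC and GG around 6 bases that are A or T, both strands) was found in the Myl9 promoter, 161 to 152 bases before the start, and in 1.63% of all 32851 promoters of that length. CATTCC, the MCAT element of muscle genes, was found in Acta2, Cald1 and Tpm1 and in 14.7% of all promoters. CAGAC, a motif that Smad proteins bind, was in Acta2, Cald1, Cnn1 and Des and in 49.6% of all promoters. Near matches to the CArG box, with another base inside, were not searched for, so lower case letters do not mean that a promoter lacks the element. These matches are letters in a window and not measured binding sites.

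Most of the contractile genes were lower after OSKM induction in both lines. Day 0 had no doxycycline, and no group was labelled as having the drug without the cassette or the same days without the drug. OSKM, drug and days in culture therefore cannot be told apart. After 4 days with VC, 9 of the 10 genes were lower than at day 0 plus VC in D/KO Fbs and 9 of 10 in WT 4F Fbs (edgeR's quasi-likelihood test, Benjamini-Hochberg adjusted p under 0.05), where 26.2% and 22.0% of all 15832 genes tested were called lower, and the only member not called was Actg2 in D/KO and Des in WT 4F Fbs. The median log2 fold change of the 10 genes was -2.42 in D/KO and -1.80 in WT 4F Fbs, against 0.01 and 0.03 over all genes tested. Without VC, 9 of 10 were lower at day 4 in D/KO Fbs (median -1.76, 18.7% of all genes called lower), and in WT 4F Fbs 9 were lower and Des was higher (median -1.48, 12.8% of all genes called lower and 11.7% higher). In D/KO Fbs without VC 5 of 7 mural and 4 of 5 endothelial markers were lower at day 4 too, and the endothelial sum was 327 to 345 CPM against 585 to 709 CPM at day 0. The mural sum without Pdgfrb moved the other way, to 365 to 432 CPM from 269 to 294 CPM, and the part of these markers was not tested. The change was already present at day 2, when 7 members had fallen in D/KO Fbs (13.2% of all genes called lower), 9 in D/KO Fbs with VC (23.6%), 6 in WT 4F Fbs (4.3%) and 9 in WT 4F Fbs with VC (13.7%). Day 2 and day 4 share the day 0 libraries of their arm.

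**Figure D1:**
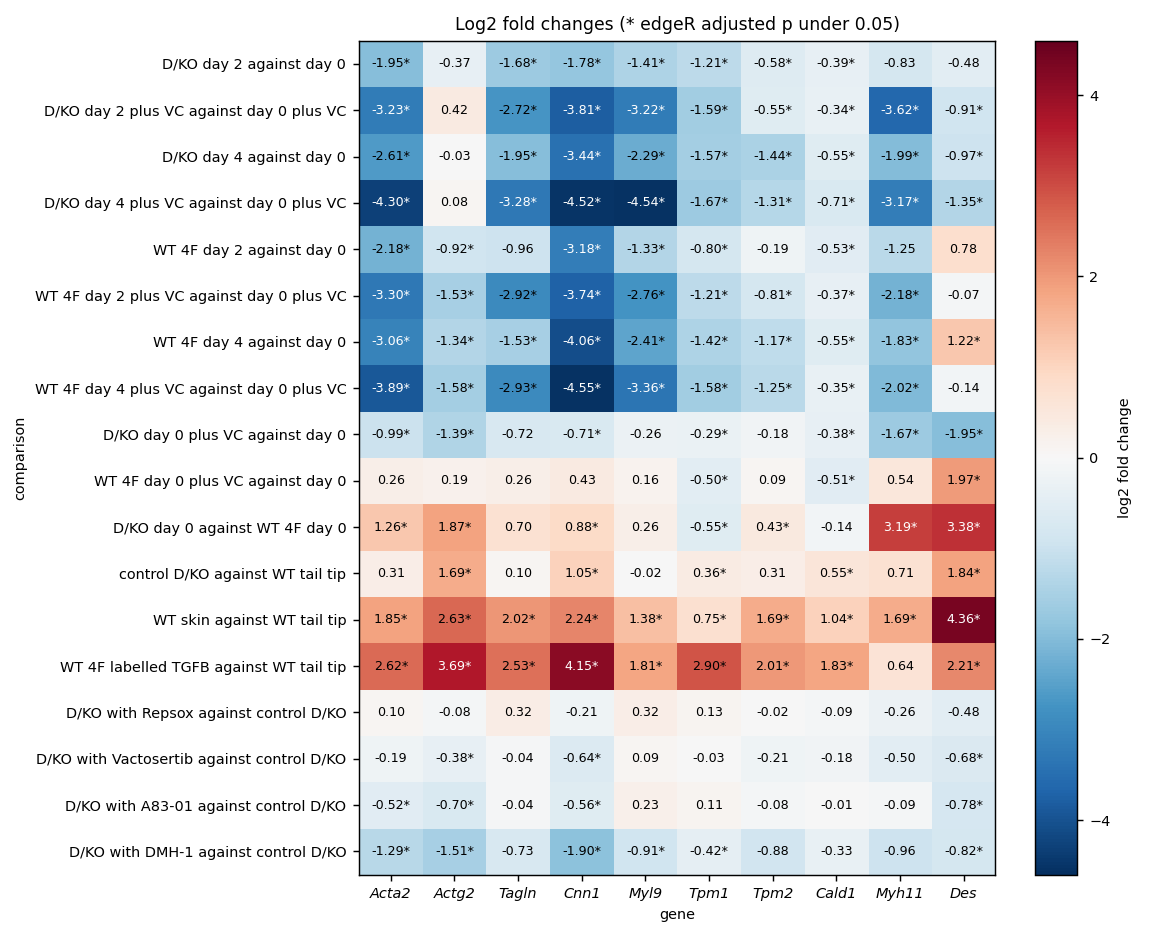
Log2 fold change of each of the 10 genes (columns) in 18 comparisons (rows), coloured from blue (lower) to red (higher), with an asterisk where edgeR's adjusted p was under 0.05. Of the members, Cnn1, Acta2 and Myl9 had the largest falls from day 0 to day 4 in all 4 series, Actg2 was near 0 at day 4 in D/KO Fbs, and the column of Des holds both signs.

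Acta2 encodes smooth muscle alpha-actin, the actin by which myofibroblasts are usually recognised. In D/KO Fbs it was at 961, 981 and 1531 CPM at day 0, at 285, 274 and 338 CPM at day 2 and at 182, 204 and 182 CPM at day 4. With VC the 3 libraries stood at 484, 653 and 615 CPM at day 0, at 50.5, 74.0 and 62.0 CPM at day 2 and at 28.2, 30.7 and 30.1 CPM at day 4. The libraries of successive days did not overlap in either arm. Acta2 was thus 6.11-fold lower at day 4 (log2 -2.61, SE 0.17, adjusted p = 4.27e-15) and 19.7-fold lower at day 4 plus VC (log2 -4.30, SE 0.19, adjusted p = 1.8e-20). WT 4F Fbs had Acta2 at 444, 529 and 481 CPM at day 0 and 65.4, 54.7 and 54.0 CPM at day 4, and with VC at 562, 493 and 688 CPM and then 37.8, 41.6 and 37.9 CPM. It was 8.35-fold lower at day 4 and 14.9-fold lower at day 4 plus VC. Ordered by mean, the groups ran from D/KO day 0 (1157 ± 323 CPM, mean ± s.d., n = 3) through D/KO day 0 plus VC, WT 4F day 0 plus VC and WT 4F day 0, whose libraries overlapped in that order, to D/KO day 2 (299 ± 34.2), D/KO day 4 (190 ± 13.0) and WT 4F day 2 (107 ± 21.9), which did not overlap their neighbours, then D/KO day 2 plus VC, WT 4F day 2 plus VC and WT 4F day 4, which overlapped, and last WT 4F day 4 plus VC (39.1 ± 2.14) and D/KO day 4 plus VC (29.7 ± 1.31), which did not.

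**Figure D2:**
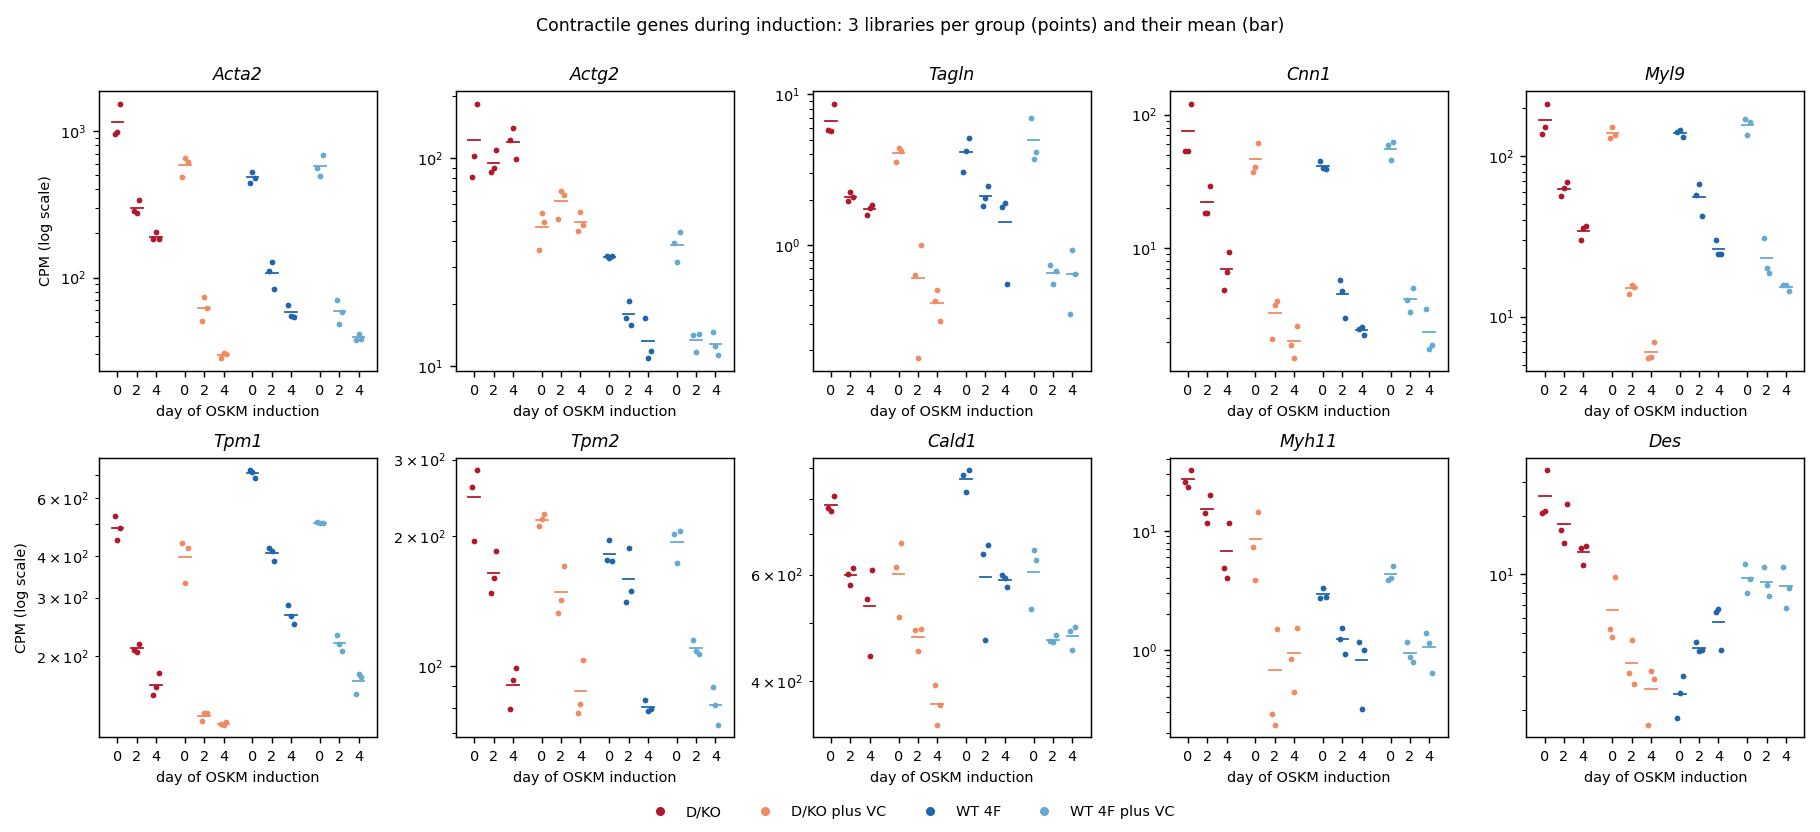
CPM of each gene (log axis, 1 panel per gene) by day of OSKM induction, with 3 libraries per group as points and their mean as a bar, for D/KO, D/KO plus VC, WT 4F and WT 4F plus VC. Acta2, Cnn1, Myl9, Tpm1 and Tpm2 step down with time in all 4 series, the days of Actg2 overlap in D/KO Fbs, and Des rises in WT 4F Fbs without VC from a mean of 2.43 to 5.70 CPM.

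The other smooth muscle actin gene, Actg2, encodes enteric gamma-actin, and in D/KO Fbs it was not called at day 2 or day 4, where Acta2 was. It was at 81.7, 103 and 183 CPM at day 0, at 85.7, 89.6 and 109 CPM at day 2 and at 122, 140 and 99.7 CPM at day 4. With VC it was at 36.2, 54.8 and 49.4 CPM at day 0, at 51.0, 69.8 and 66.7 CPM at day 2 and at 44.5, 55.3 and 48.0 CPM at day 4. The libraries of the days overlapped, the change at day 4 was -0.03 (log2, 95% confidence interval -0.42 to 0.37) and that at day 4 plus VC was 0.08 (-0.33 to 0.48). The changes at day 2 were -0.37 (-0.76 to 0.02) and, with VC, 0.42 (0.02 to 0.82, adjusted p = 0.0809), and with no filter on low counts both were called (adjusted p = 0.0254 and 0.00492). Against day 0 without VC the change at day 4 plus VC was -1.32 (adjusted p = 7.09e-07), since VC lowered Actg2 at day 0. WT 4F Fbs had Actg2 at 33.7, 33.2 and 33.9 CPM at day 0 and at 17.1, 10.9 and 11.8 CPM at day 4, with no overlap (log2 -1.34, SE 0.21, adjusted p = 7.16e-06). With VC it fell by 1.58 on the log2 scale. The difference between the lines was itself larger than the spread between libraries: the change to day 4 was higher in D/KO Fbs by 1.31 (log2, adjusted p = 0.00117), and with VC by 1.66 (adjusted p = 3.77e-05). The actin genes have closely similar coding sequences, and how reads that map to several of them were counted is not given in the sources used here.

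Calponin 1 (Cnn1), transgelin (Tagln) and caldesmon (Cald1) bind actin and set how it slides on myosin. Cnn1 fell most of the 3. In D/KO Fbs it was at 53.1, 53.6 and 120 CPM at day 0, at 4.88, 6.63 and 9.44 CPM at day 4, at 37.0, 40.6 and 61.5 CPM at day 0 plus VC and at 1.90, 1.5 and 2.63 CPM at day 4 plus VC. The ranges did not overlap, and Cnn1 was 10.8-fold lower at day 4 and 22.9-fold lower with VC (log2 -3.44 ± 0.29 and -4.52 ± 0.33 SE). The WT 4F libraries went from 44.7, 39.7 and 39.2 CPM to 2.50, 2.59 and 2.26 CPM at day 4, so that Cnn1 was 16.7-fold lower at day 4 and 23.4-fold lower with VC. At day 2 without VC Cnn1 was 9.09-fold lower in WT 4F against 3.44-fold lower in D/KO Fbs, a difference of 1.40 (log2, adjusted p = 0.0222) that lost its call when any of 5 of the 12 libraries was left out. On the opposite strand Elof1, at 20.8 to 45.3 CPM, overlaps 35.1% of the exon bases of Cnn1, and the strand setting of the counting is not given in the sources used here.

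Tagln was low in all 12 reprogramming groups, at 0.18 to 8.66 CPM, and its values are uncertain because 68.2% of its exon bases overlap Pcsk7 or Gm48529 on the opposite strand. In D/KO Fbs it was at 5.80, 5.69 and 8.66 CPM at day 0 and 1.57, 1.78 and 1.83 CPM at day 4, and it was 3.88-fold lower at day 4 and 9.71-fold lower with VC. The falls in WT 4F Fbs were 2.89-fold at day 4 and 7.61-fold with VC. Pcsk7 itself kept between 20.6 and 40.4 CPM in these 36 libraries. Cald1, which is expressed in most cells that make stress fibres, changed least among the members called at day 4 in D/KO Fbs, from 772, 764 and 808 CPM to 547, 440 and 610 CPM, and from 617, 510 and 677 CPM to 394, 340 and 366 CPM with VC. These changes were 1.47-fold and 1.64-fold, and in WT 4F Fbs they were 1.47-fold and 1.28-fold, the last a call that was lost when any of 3 of the 6 libraries was left out.

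Of the myosin genes, Myl9, the regulatory light chain whose phosphorylation switches contraction on, fell as far as Cnn1 in D/KO Fbs with VC. Its libraries were at 139, 152 and 212 CPM at day 0, at 29.9, 35.8 and 36.8 CPM at day 4, at 130, 153 and 136 CPM at day 0 plus VC and at 5.49, 5.57 and 6.95 CPM at day 4 plus VC. Myl9 was 4.90-fold lower without VC and 23.2-fold lower with it (log2 -2.29 ± 0.16 and -4.54 ± 0.19 SE), and the groups were far apart. The WT 4F values were 142, 146 and 132 CPM at day 0, 29.8, 24.4 and 24.7 CPM at day 4 and 15.6, 15.8 and 14.4 CPM at day 4 plus VC, which were 5.33-fold lower than day 0 and 10.3-fold lower than day 0 plus VC. With VC the fall was larger in D/KO than in WT 4F Fbs by 1.17 (log2, adjusted p = 0.000277).

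Myh11, the smooth muscle myosin heavy chain and the most restricted marker of mature smooth muscle, started at 25.8, 23.3 and 32.4 CPM in D/KO Fbs and at 2.76, 3.33 and 2.81 CPM in WT 4F Fbs. In D/KO Fbs it reached 4.88, 4.02 and 11.7 CPM at day 4, and with VC it went from 7.31, 3.84 and 14.4 CPM to 0.85, 0.45 and 1.53 CPM. It was 3.97-fold lower at day 4 and 8.99-fold lower at day 4 plus VC (log2 -3.17, SE 0.47). In each of the 6 D/KO groups replicate 3 was the highest, and it weighed on the size of the change: without replicate 3 of day 0 plus VC the change at day 4 plus VC was -2.56, and without replicate 3 of day 4 the change at day 4 was -2.61 in place of -1.99. The calls themselves held in these cases. Myh11 in WT 4F Fbs was 3.55-fold lower at day 4 and 4.05-fold lower with VC, from a level of at most 5.04 CPM. Its WT 4F call at day 4 without VC was lost without replicate 2 of that group (adjusted p = 0.0578).

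Tropomyosins lie along actin filaments and gate myosin. Tpm1 was at 530, 447 and 486 CPM in D/KO Fbs at day 0, 153, 161 and 177 CPM at day 4 and 125, 124 and 126 CPM at day 4 plus VC. It was 2.97-fold lower at day 4 and 3.18-fold lower with VC, and WT 4F Fbs, which started higher (726, 719 and 690 CPM), were 2.67-fold and 3.00-fold lower. Tpm2 was at 260, 194 and 283 CPM in D/KO Fbs at day 0 and 79.6, 93.1 and 99.2 CPM at day 4, a 2.71-fold fall, with a 2.48-fold fall with VC. Tpm2 in WT 4F Fbs was 2.26-fold and 2.37-fold lower. Day 4 plus VC and day 4 without VC did not differ beyond their spread for Tpm2 (log2 -0.05, 95% confidence interval -0.31 to 0.21, in D/KO Fbs, and 0.01, -0.24 to 0.27, in WT 4F Fbs).

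Desmin (Des), the muscle intermediate filament, was the member whose direction depended most on the line. In D/KO Fbs it was at 20.8, 21.1 and 34.3 CPM at day 0 and 13.7, 11.2 and 14.0 CPM at day 4, and it was 1.96-fold lower (adjusted p = 0.00143). The WT 4F libraries were at 1.82, 2.47 and 3.01 CPM at day 0 and 6.39, 6.62 and 4.08 CPM at day 4, and it was 2.33-fold higher (adjusted p = 0.00159). The groups did not overlap in either line, and the changes differed by -2.19 (log2, SE 0.38, adjusted p = 5.97e-05). With VC, Des fell in D/KO Fbs from 5.24, 4.74 and 9.75 CPM to 1.69, 3.17 and 2.89 CPM (log2 -1.35), while in WT 4F Fbs it was at 11.3, 8.04 and 9.49 CPM at day 0 and 11.0, 6.74 and 8.49 CPM at day 4 (log2 -0.14, 95% confidence interval -0.65 to 0.38).

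Between day 2 and day 4 the fall went on for some genes. For D/KO Fbs 6 members were lower at day 4 than at day 2 (5.07% of all genes called lower), from Cnn1 (log2 -1.66) to Tpm1 (-0.36), and with VC 4 were (7.84%), Acta2 (-1.07), Myl9 (-1.32), Tpm2 (-0.76) and Cald1 (-0.37). Acta2, Myl9, Tpm1 and Tpm2 were lower in both arms of WT 4F Fbs (12.3% of all genes called lower without VC and 10.1% with VC). Myh11, called between day 2 and day 4 in D/KO Fbs (log2 -1.16, adjusted p = 0.0408), lost the call when any of 4 of the 6 libraries was left out, Acta2 and Tpm1 when 1 was, and Cald1 in the VC arm when any of 3 was. In the VC arm of WT 4F Fbs, Acta2 (adjusted p = 0.11), Myl9 (0.197) and Tpm2 (0.0629) lost their calls without replicate 1 of day 2 plus VC, which left 1 member called.

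The effect of VC without doxycycline, at day 0, differed between the lines. How long the day 0 cells had been given VC is not stated in the sources used here. At day 0 in D/KO Fbs, 7 members were lower with VC (14.0% of all genes called lower), among them Acta2 (log2 -0.99), Actg2 (-1.39), Myh11 (-1.67) and Des (-1.95), while Tagln, Myl9 and Tpm2 did not pass the test (-0.72, -0.26 and -0.18). At day 0 in WT 4F Fbs, Tpm1 (-0.50) and Cald1 (-0.51) were lower (14.4% of all genes called lower), Des was 3.93-fold higher (log2 1.97, 15.1% of all genes called higher), and Acta2 changed by 0.26 (95% confidence interval -0.06 to 0.59). The difference between the lines was tested after the Des values had been seen. It was past the threshold for 5 members, all with the lower change in D/KO Fbs (8.35% of all genes called in that direction): Acta2 (log2 -1.25), Actg2 (-1.58), Cnn1 (-1.14), Myh11 (-2.21) and Des (-3.92, adjusted p = 9.09e-09). Cnn1 lost that call when any of 7 of the 12 libraries was left out, and the D/KO count at day 0 fell from 7 to 4 without replicate 2 of D/KO day 0 plus VC. The summed endothelial markers moved with VC in D/KO Fbs too, to 215 to 256 CPM from 585 to 709 CPM, those of mural cells without Pdgfrb to 71.6 to 93.4 CPM from 269 to 294 CPM, and the 9 fibroblast markers to 182961 to 252423 CPM from 79384 to 118363 CPM, of which Col1a1 held a mean of 135874 CPM. In WT 4F Fbs the fibroblast sum moved likewise, from 51457 to 53262 CPM without VC to 154772 to 170528 CPM with it. The part of these shifts in the result was not tested.

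**Figure D3:**
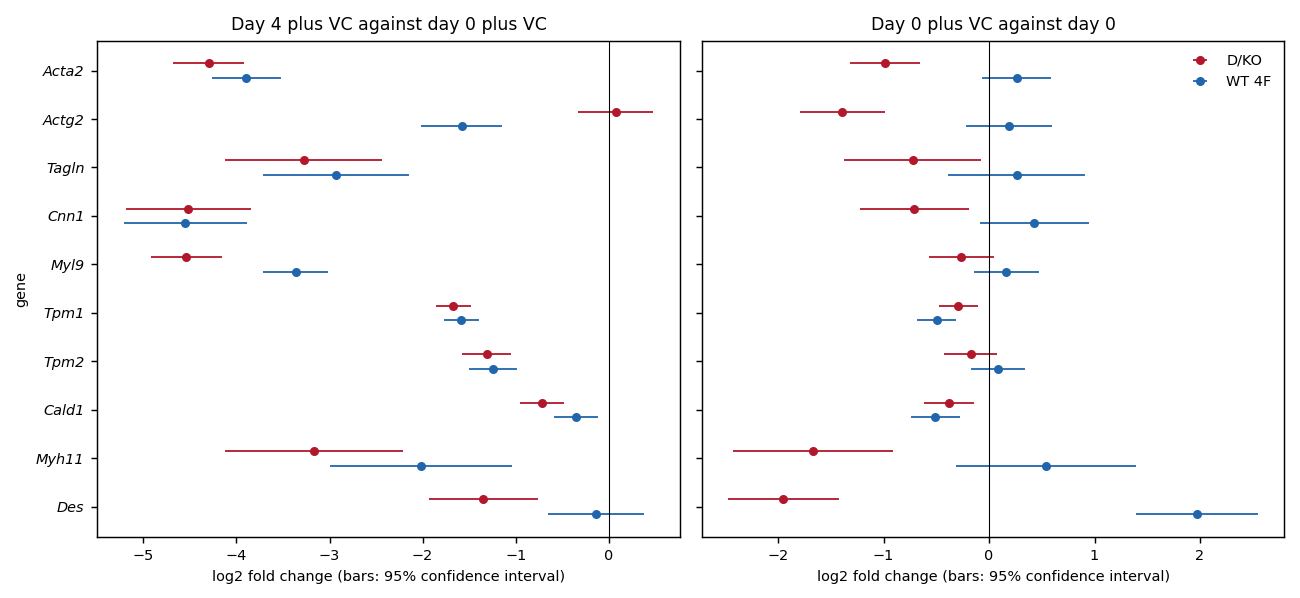
Log2 fold change of the 10 genes with its 95% confidence interval in D/KO (red) and WT 4F (blue) Fbs, for day 4 plus VC against day 0 plus VC (left) and for day 0 plus VC against day 0 (right). On the left the intervals of Actg2, Myl9 and Des lie apart between the lines, and on the right those of Acta2, Actg2, Cnn1, Myh11 and Des do.

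During induction most members were lower with VC than without it in D/KO Fbs at both days and in WT 4F Fbs at day 2. At day 2, 9 members were in D/KO Fbs (14.2% of all genes called lower), led by Myh11 (log2 -4.46), Cnn1 (-2.74), Des (-2.38) and Acta2 (-2.27), and at day 4 there were 9 (17.7%), led by Myh11 (-2.85), Acta2 (-2.67) and Myl9 (-2.51). Tpm2 was the member not called at either day, and at day 2 Cald1 lost its call for 5 of 6 left-out libraries and Actg2 for 2 of 6. For WT 4F Fbs 6 were lower and Des higher at day 2 (13.0% and 13.5% of all genes called), of which Cald1 lost its call for 5 of 6 left-out libraries. At day 4 there were 4 lower (10.4%): Acta2 (-0.57), Tagln (-1.13), Myl9 (-0.79) and Tpm1 (-0.66). Of these, Tagln lost its call when any of 4 of the 6 libraries was left out and with only the groups compared in the fit (adjusted p = 0.0739). Acta2 lost its call for 1 of 6 left-out libraries. Relative to the day 0 of each arm, the change to day 4 was larger with VC for Acta2 (by -1.69 in log2) and Myl9 (-2.24) in D/KO Fbs, where 13.3% of all genes were called in that direction. The same test in WT 4F Fbs called Acta2 (-0.83), Myl9 (-0.95) and Des (-1.36), where 8.17% of all genes were. In that test Acta2 lost its call for 1 of 12 left-out libraries. At D/KO day 4 plus VC, 6 of 7 mural markers were lower than at day 0 plus VC (26.2% of all genes called lower). Of the keratinocyte markers tested, 4 of 5 were higher (27.9% of all genes called higher), with Krt14 at a mean of 367 CPM. The mural sum was 420 to 471 CPM against 632 to 764 CPM with Pdgfrb and 214 to 259 CPM against 71.6 to 93.4 CPM without it, with Cspg4 at a mean of 222 CPM, and the part of either in the result was not tested.

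Directly compared, the change to day 4 plus VC differed between the lines for 3 members: Actg2 (log2 1.66), Myl9 (-1.17) and Des (-1.21), where 15.5% of all genes were called lower and 13.9% higher. Des lost that call when any of 3 of the 12 libraries was left out. For Acta2 the difference was -0.41 (95% confidence interval -0.88 to 0.07) and for Cnn1 it was 0.03 (-0.94 to 1.01). Without VC at day 4, Actg2 and Des differed (7.04% of all genes called lower and 7.27% higher). At day 2 it was Cnn1, Tpm1 (-0.41) and Des (-1.26), where 3.11% were called lower and 3.43% higher, and the count was 0 to 2 whichever library was left out. With VC it was Actg2 (1.95) and Tpm1 (-0.38), where 7.0% and 6.86% were. Tpm1 lost its call for 10 of the 12 libraries at day 2 and at day 2 plus VC, and Des at day 2 for 8 of 12. The lines had also differed at the start. At day 0 without VC, 6 members were higher in D/KO Fbs (22.1% of all genes called higher), from Tpm2 (log2 0.43) through Acta2 (1.26) and Actg2 (1.87) to Myh11 (3.19) and Des (3.38), and Tpm1 was lower (-0.55, 21.1% called lower). Tpm2 and Cnn1 each lost the call for 1 of 6 left-out libraries, and the 7 calls fell to 5 at the lowest. The 7 mural markers were all higher in D/KO Fbs at day 0, as were the 5 endothelial markers, and the 5 immune markers were lower. Their part in the result was not tested.

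Per length, the members differ widely in level. At D/KO day 0, CPM per kilobase of exon was 527 for Acta2, 144 for Myl9, 84.5 for Tpm2, 78.7 for Actg2, 75.2 for Tpm1, 64.9 for Cald1, 27.7 for Cnn1, 6.77 for Des, 3.58 for Myh11 and 3.38 for Tagln. The places of Tagln and Cnn1 in this order are uncertain, because 68.2% and 35.1% of their exon bases overlap genes on the opposite strand. With VC Acta2 was at 266 and Actg2 at 30.1 on this scale at day 0, and at 13.5 and 31.7 at day 4, so that the order of the smooth muscle actins had turned. Among 6 actin genes (Acta1, Acta2, Actb, Actc1, Actg1 and Actg2, as a share of their summed counts per kilobase), Acta2 held 22.6% ± 1.29 (s.d., n = 3) at D/KO day 0 and 6.34% ± 0.44 at day 4, and with VC 15.6% ± 1.65 at day 0 and 1.15% ± 0.10 at day 4. The WT 4F shares were 17.4% ± 1.85 and 3.09% ± 0.05, and with VC 17.9% ± 1.42 and 2.23% ± 0.16. The Actg2 share in D/KO Fbs was 3.30% ± 0.68 at day 0 and 5.64% ± 0.42 at day 4, with no overlap of the libraries. Among 4 tropomyosin genes Tpm1 went from 17.8% ± 2.21 at D/KO day 0 plus VC to 8.96% ± 0.40 at day 4 plus VC while Tpm3, a cytoskeletal tropomyosin, went from 16.5% ± 1.67 to 28.9% ± 1.94. All 10 members together took 0.290% ± 0.047 of the counts at D/KO day 0 and 0.122% ± 0.011 at day 4, and with VC 0.171% ± 0.016 and 0.0718% ± 0.0039. In WT 4F Fbs these shares were 0.265% ± 0.0024 and 0.114% ± 0.0039, and with VC 0.189% ± 0.0086 and 0.0859% ± 0.0019.

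**Figure D4:**
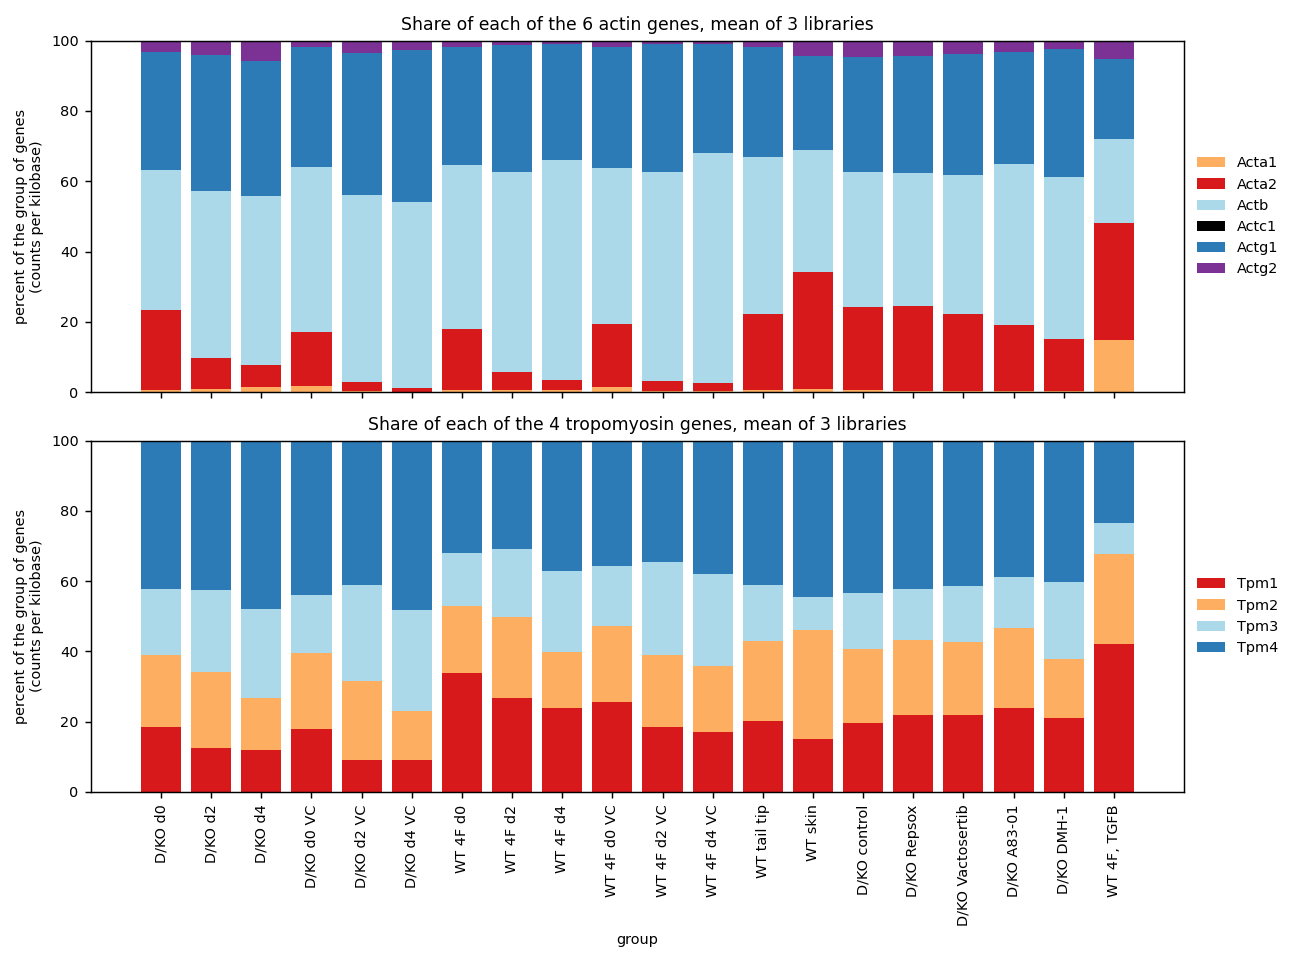
Mean share of each of 6 actin genes (top) and 4 tropomyosin genes (bottom) in the 20 groups, in percent of the summed counts per kilobase, stacked to 100. The Acta2 share (red) shrinks from 22.6% at D/KO day 0 to 6.34% at day 4, and from 15.6% to 1.15% with VC, while Acta1 (orange) reaches 14.9% in WT 4F Fbs labelled TGFB.

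In the inhibitor table the question was whether blocking TGFb or BMP receptors lowers the same genes in D/KO Fbs. Each inhibitor was compared with the same 3 control libraries. DMH-1, the ALK2 inhibitor, lowered the most members: 6 of 10 fell, where 2.9% of all 15652 genes tested were called lower, and the libraries of all 10 lay below those of the control, as for 15.1% of all genes. A83-01 lowered 4 (13.9% of all genes called lower), Vactosertib 3 (8.7%) and Repsox none by edgeR or DESeq2 (20.7% of all genes called in either direction), although Des had an unadjusted p of 0.0264. For Acta2 the control stood at 1345, 1146 and 1106 CPM, Repsox at 1171, 1604 and 1072 CPM and Vactosertib at 1113, 975 and 1070 CPM. A83-01 stood at 905, 772 and 823 CPM and DMH-1 at 461, 462 and 549 CPM. The 3 libraries each of A83-01 and DMH-1 were below the control and did not overlap each other. Acta2 was 2.44-fold lower with DMH-1 (log2 -1.29, SE 0.16, adjusted p = 1.86e-05), 1.44-fold lower with A83-01 (log2 -0.52, adjusted p = 0.0154, but 0.083 without replicate 1 of the control and 0.0655 without replicate 2 of A83-01), and changed by -0.19 (95% confidence interval -0.52 to 0.14) with Vactosertib and by 0.10 (-0.23 to 0.42) with Repsox.

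**Figure D5:**
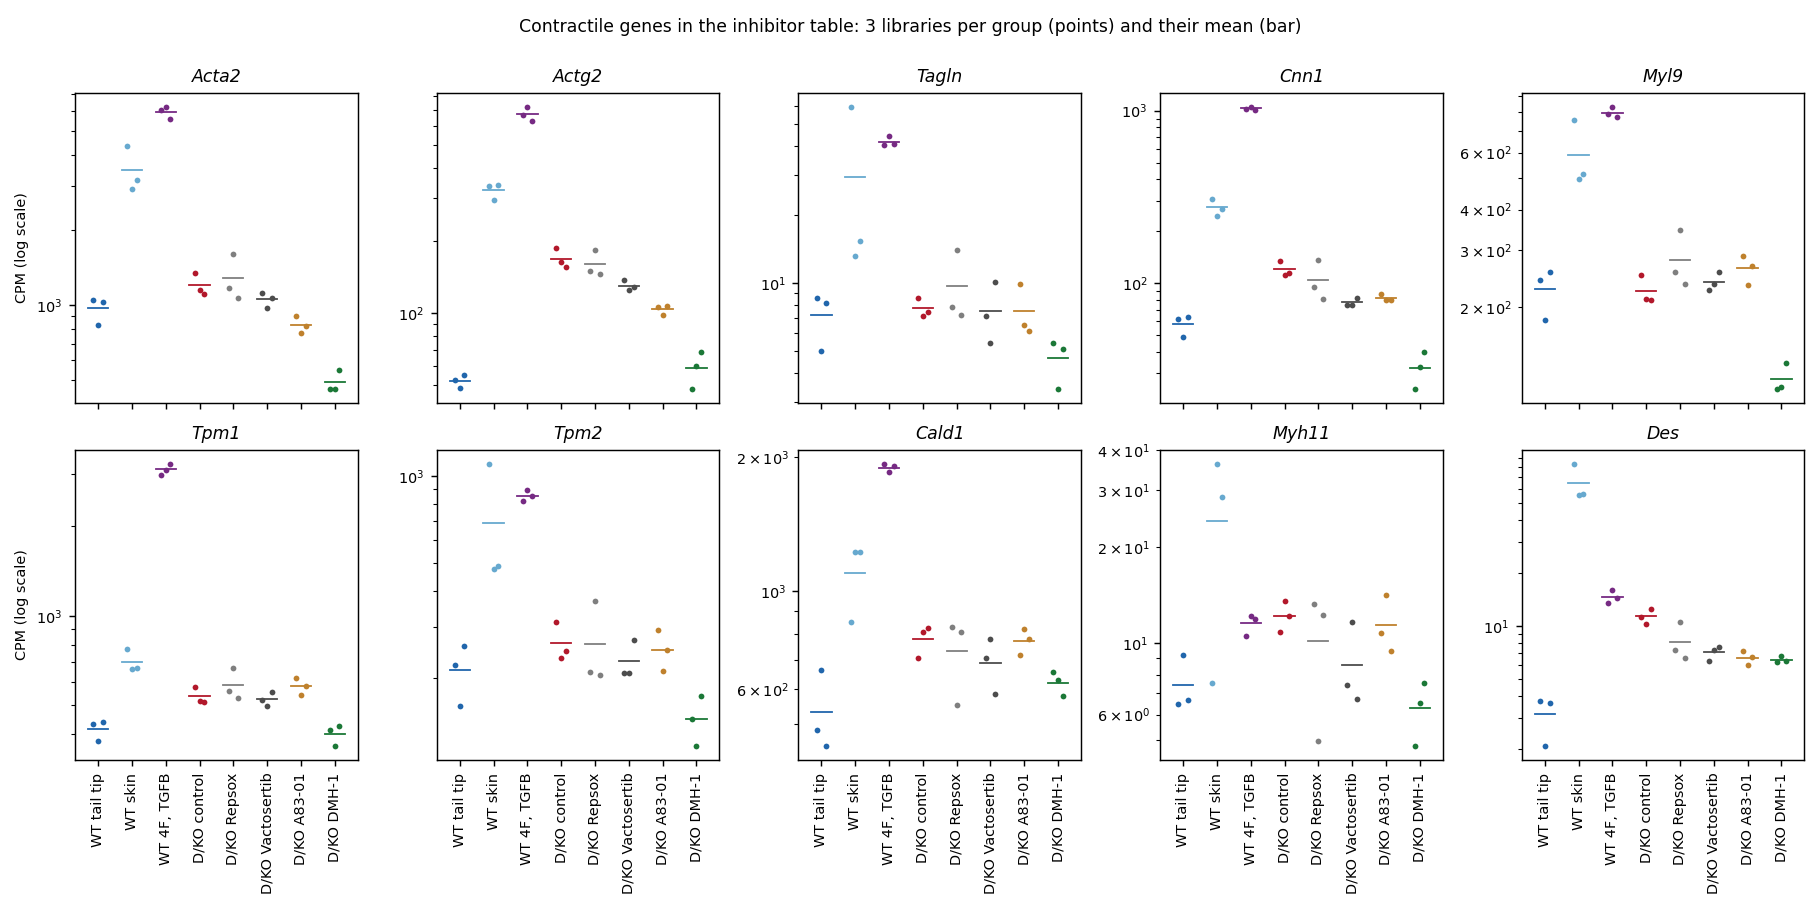
CPM of each gene (log axis, 1 panel per gene) in the 8 groups of the inhibitor table, with 3 libraries per group as points and their mean as a bar. The DMH-1 libraries lie below the control D/KO libraries in every panel, and the 3 libraries of WT 4F Fbs labelled TGFB lie above all others for Acta2, Actg2, Cnn1, Myl9, Tpm1 and Cald1.

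Cnn1 again moved most with DMH-1, from 135, 111 and 114 CPM in the control to 24.4, 32.6 and 39.9 CPM, a 3.72-fold fall. It was 1.55-fold lower with Vactosertib and 1.47-fold lower with A83-01, calls that were lost for 2 of 6 and 3 of 6 left-out libraries. Actg2 was at 187, 163 and 156 CPM in the control, 106, 98.5 and 107 CPM with A83-01 and 48.3, 59.9 and 69.0 CPM with DMH-1, and it was 1.63-fold and 2.86-fold lower. These groups did not overlap. With Vactosertib its change was -0.38 on the log2 scale, a call that was lost when any of 5 of the 6 libraries was left out. Des was lower with Vactosertib (log2 -0.68), A83-01 (-0.78) and DMH-1 (-0.82), and lost the call for 4 of 6 left-out libraries with Vactosertib and 2 of 6 with DMH-1. Myl9 fell with DMH-1 alone, from 251, 211 and 210 CPM to 112, 113 and 134 CPM (1.87-fold), while with A83-01 it was at 288, 234 and 268 CPM (log2 0.23, 95% confidence interval -0.11 to 0.58). Tpm1 fell 1.34-fold with DMH-1 (adjusted p = 0.0183), but lost the call with no filter on low counts (adjusted p = 0.0995) and without replicate 1 of the control (0.101) or replicate 2 of DMH-1 (0.109). Tpm2 (-0.88), Myh11 (-0.96), Tagln (-0.73) and Cald1 (-0.33) had values below 0 with DMH-1 that did not pass the test in the main edgeR fit of all 24 libraries. That outcome depended on the fit, since all 4 passed when control and DMH-1 alone were fitted.

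By the doses stated for the methylation samples, which may not be those of the RNA libraries, 2 pairs of compounds were matched. At 1 µM, A83-01 left 6 members higher than DMH-1 (9.67% of all genes called higher): Cnn1 (log2 1.34), Myl9 (1.14), Actg2 (0.81), Tpm2 (0.80, lost when any of 4 of the 6 libraries was left out), Acta2 (0.76) and Tpm1 (0.53). Des did not separate them (0.04, 95% confidence interval -0.38 to 0.47). At 0.1 µM, Repsox and Vactosertib were told apart by edgeR for 0.0% of the 15652 genes (347 at an unadjusted p under 0.05, and 4 called by DESeq2), and the members differed by 0.08 to 0.42 on the log2 scale, with intervals that for Cnn1 ran from 0.07 to 0.78. Repsox rested on 3 libraries of which replicate 2 stood apart by transcript length. Without it Acta2 changed by -0.10 instead of 0.10, Cnn1 by -0.46 (adjusted p = 0.0539) and Des by -0.71 (adjusted p = 0.0181), which was then called. Vactosertib's count went from 3 to 0 without replicate 1 of the control or replicate 1 of Vactosertib and to 1 without replicate 2 of Vactosertib, and that of A83-01 from 4 to 2 without replicate 1 of the control or replicate 2 of A83-01.

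The untreated groups of the inhibitor table differed as well. Against WT tail tip Fbs, control D/KO Fbs were higher for 5 members (17.9% of all genes called higher), Actg2 (3.23-fold), Des (3.58-fold), Cnn1 (2.07-fold), Cald1 (1.46-fold) and Tpm1 (1.29-fold). The count was 4 whichever library was left out, since Cald1 lost its call for 4 of the 6 libraries and Tpm1 for the other 2. Acta2 stood at 1045, 833 and 1029 CPM in WT tail tip Fbs, overlapping none of the control D/KO libraries, and did not pass the test (log2 0.31, 95% confidence interval -0.02 to 0.63). The summed endothelial markers were 290 to 331 CPM in control D/KO against 73.3 to 91.1 CPM in WT tail tip Fbs and those of mural cells without Pdgfrb 126 to 153 CPM against 34.5 to 55.7 CPM, and their part was not tested. Skin Fbs of the same genotype were higher than tail tip Fbs for 10 of 10 members (18.1% of all genes called higher). Acta2 was at 4340, 2933 and 3184 CPM in skin (3.60-fold higher), and Des at 83.1, 55.5 and 56.4 CPM against 3.76, 2.09 and 3.66 CPM (20.5-fold higher). Of 12 striated muscle markers 9 were at 1 CPM or more in the skin libraries (summed 86.0 to 88.5 CPM) against 1 of 12 in tail tip (15.3 to 19.8 CPM), with Pax7 at 0 in all 3 skin libraries, and their part in the Des value was not tested. Replicate 1 of skin stood apart by transcript length. Without it Tagln went from 2.02 to 0.97 (log2), Tpm2 from 1.69 to 1.18 and Myh11 from 1.69 to 2.12, and all 10 members stayed called. With skin and tail tip alone in the fit 8 were called, and Tagln (adjusted p = 0.0584) and Myh11 (adjusted p = 0.0697) were not. The endothelial markers summed to 167 to 240 CPM in skin against 73.3 to 91.1 CPM in tail tip and the mural markers without Pdgfrb to 60.1 to 145 CPM against 34.5 to 55.7 CPM, and their part was not tested.

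All 3 libraries of WT 4F Fbs labelled TGFB lay above all others of the inhibitor table for Acta2, Actg2, Cnn1, Myl9, Tpm1 and Cald1. The share of all genes for which this holds is not given here. Acta2 was at 6040, 6242 and 5572 CPM, Cnn1 at 1030, 1053 and 1010 CPM and Tpm1 at 2982, 3107 and 3245 CPM. Against WT tail tip Fbs, a different line, 9 members were higher (28.6% of all genes called higher, where the median of all genes was -0.11 in log2): Cnn1 17.8-fold, Actg2 12.9-fold, Tpm1 7.46-fold, Acta2 6.14-fold, Tagln 5.80-fold, Des 4.62-fold, Tpm2 4.02-fold, Cald1 3.56-fold and Myl9 3.51-fold. The libraries of all 10 lay above those of WT tail tip, as for 33.4% of all genes. Myh11, at 10.5, 12.2 and 12 CPM against 6.48, 9.18 and 6.67 CPM, did not pass the test (log2 0.64, 95% confidence interval -0.20 to 1.47). All 10 members together took 1.23% ± 0.021 of the counts, against 0.240% ± 0.012 in WT tail tip Fbs. The striated muscle actin Acta1 was at a mean of 1873 CPM in these libraries, where Myl1 and Myod1 were at 0, and the 5 endothelial markers summed to 1.20 to 1.88 CPM. The mural markers summed to 949 to 973 CPM against 340 to 498 CPM in WT tail tip Fbs, and to 458 to 468 against 34.5 to 55.7 CPM without Pdgfrb. The part of these in the result was not tested. Treatment, line and age cannot be told apart in this comparison.

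Genes around the contractile set moved in part with it. Of the regulators, Srf (log2 -0.44) and Mrtfa (-1.34), the partner that carries the actin signal to Srf, were lower at D/KO day 4 plus VC, Mrtfb changed by -0.28 and did not pass, and Myocd stayed under 1 CPM. Mrtfa alone was lower at WT 4F day 4 plus VC (-0.89), and Srf (1.39) and Mrtfa (0.79) were higher in WT 4F Fbs labelled TGFB than in WT tail tip Fbs. Of 17 other smooth muscle and stress fibre genes tested, 13 were lower and 2 higher at D/KO day 4 plus VC (median -1.21, where 26.2% of all genes were called lower and 27.9% higher), with Lmod1, a leiomodin that nucleates actin, at -4.41, Kcnmb1, a potassium channel subunit, at -4.25 and Itga8, an integrin of contractile cells, at -3.46. Of 12 cytoskeletal counterparts of the members, 7 were lower and 1 higher (median -0.40) against the same shares of all genes. Cnn2 was at -1.11 and Myl12a at -1.04, whereas Tagln2, the non-muscle transgelin, was higher by 0.81. Of the TGFb target genes, Ltbp2 (-2.61), which binds matrix fibrils, Tgfbi (-2.38), a secreted matrix protein, and Ccn2 (-1.91) were lower, Skil was higher (0.71) and Smad7 did not pass the test (-0.03). These lists were chosen with results of these data known, and lists and members share the same libraries.

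The same lists showed another pattern with the inhibitors. The TGFb targets Tgfbi, Skil, Ccn2 and Ltbp2 were lower with each of the 4 inhibitors, while Smad7 was lower with DMH-1 (-0.60) and did not pass the test with A83-01 (0.23), Vactosertib (-0.22) or Repsox (-0.15). With A83-01, Tgfbi was at -2.92, Skil at -2.67, Ccn2 at -2.48 and Ltbp2 at -0.94, and with DMH-1 they were at -0.62, -0.73, -0.79 and -1.31. Between the inhibitors, Tgfbi, Skil and Ccn2 were lower with A83-01 than with DMH-1 (by -2.30, -1.94 and -1.68), Smad7 was higher (0.83) and Ltbp2 did not pass the test (0.38). Of the 18 other smooth muscle genes, 10 were lower and 0 higher with DMH-1 (median -0.50, 2.9% of all genes called lower), while 5 were lower and 5 higher with A83-01 (median 0.16, 13.9% of all genes called lower and 13.6% higher), among them Itga8 (3.06) and Csrp2 (-2.42), and Pdlim3, at 0 in the control, reached 0.25 CPM. Among the cytoskeletal counterparts with A83-01, Myl12b was at 1.66, Tagln2 at -0.95 and Cnn2 at 0.48. Srf was higher with A83-01 (0.46), and the 4 regulators did not pass the test with DMH-1. The median of the 10 contractile genes was -0.09 with A83-01 and -0.89 with DMH-1. Fibroblast markers moved as well, with 5 of 9 lower with each of Repsox (9.73% of all genes called lower), Vactosertib (8.7%) and A83-01 (13.9%) and 1 of 9 with DMH-1 (2.9%), and their part was not tested.

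Across the 12 reprogramming groups the members varied together to unequal degrees. As a description over group means that share libraries and line, the median Pearson correlation of a member with the other 9 was 0.88 for Myl9, 0.86 for Tagln, 0.85 for Acta2 and 0.82 for Cnn1, but 0.40 for Actg2 and 0.38 for Des. Across the 8 inhibitor groups these medians ran from 0.67 for Des to 0.96 for Cnn1, with Actg2 at 0.93. Outside the lists, the genes most like Acta2 over the 12 groups, of 10223 compared, were Ryk (0.958), Rhob (0.958), Derl1 (0.95), Gng2 (0.949) and Ccn4 (0.948), and over the 8 inhibitor groups their correlations with Acta2 were 0.0873, 0.778, 0.494, 0.427 and 0.716.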

How the data were processed

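Raw gene counts were deposited for 60 libraries in 2 tables. The authors made these counts from paired-end reads, and the submitters' processing notes name FastQC, Trim Galore, HISAT2, Subread featureCounts and GRCm39. Versions, the strand setting and the treatment of multi-mapping reads are not given in the sources used here. GENCODE M39 held 56236 of the 56980 gene IDs (98.7%). Groups follow the sample labels.

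Each table was fitted once in R 4.3.3 with edgeR 4.0.16 (TMM scaling, filterByExpr at min.count 10 and min.total.count 15, two-sided quasi-likelihood tests, 1 coefficient for every group), and p-values were Benjamini-Hochberg adjusted over all 15832 or 15652 genes tested, with a threshold of 0.05. The procedure was tested on simulated data. Intervals are 95% confidence intervals of the log2 fold change, and differences between changes are interaction contrasts. Between any 2 replicates the spread was at least 3.18 times the counting noise, so none was treated as a repeat deposit of the same library.

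By rule, the text names all 10 members, 4 regulators, the 3 members of each other list with the largest called change at D/KO day 4 plus VC and with A83-01, and the 5 genes most correlated with Acta2 among those with a group mean of at least 10 CPM. The members and lists were chosen with earlier results of these data known. Alternatives were DESeq2 1.42.0, its size factors, no filter, 10 counts in every library, only the groups compared, 18 libraries in the inhibitor fit, day 0 without VC as baseline, and each library left out. Promoters came from RefSeq on GRCm38.p6, a build other than that of the counts. Some genes of the lists are not reported here.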

Additional observations from a re-analysis of the deposited data

Results flagged for a closer look

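Differences between groups under the same contrast that passed a test of the difference itself are given here as log2 values, with no explanation. With VC the change to day 4 was lower than without it for Acta2 (-1.69) and Myl9 (-2.24) in D/KO Fbs, and for Acta2 (-0.83), Myl9 (-0.95) and Des (-1.36) in WT 4F Fbs. The Acta2 difference in WT 4F Fbs lost its call for 1 of 12 left-out libraries.

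Between the lines, the change in D/KO minus that in WT 4F Fbs was 1.40 for Cnn1, -0.41 for Tpm1 and -1.26 for Des at day 2. At day 2 plus VC it was 1.95 for Actg2 and -0.38 for Tpm1. At day 4 it was 1.31 for Actg2 and -2.19 for Des, and at day 4 plus VC it was 1.66 for Actg2, -1.17 for Myl9 and -1.21 for Des. The Tpm1 differences lost their call when any of 10 of the 12 libraries was left out, at day 2 and at day 2 plus VC. Des lost it for 8 of 12 at day 2 and for 3 of 12 at day 4 plus VC.

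The effect of VC at day 0, in D/KO minus WT 4F Fbs, was -1.25 for Acta2, -1.58 for Actg2, -1.14 for Cnn1, -2.21 for Myh11 and -3.92 for Des. This contrast was added after the Des values had been seen.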

How the results depend on the processing

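Over all alternatives, 4118 of 4327 member results kept their direction and their side of the threshold, 140 lost the call, 65 gained it and 4 reversed. The 4 came from taking day 0 without VC as the baseline of the VC arms, where the Actg2 changes in D/KO Fbs were -0.97 (day 2) and -1.32 (day 4), and Des in WT 4F Fbs was higher (1.90 and 1.84); the baseline itself differs for these genes by the VC effect at day 0. With the groups compared alone in the fit, the count of members called went from 7 to 4 for VC at day 0 in D/KO Fbs, from 3 to 1 for the difference between the lines at day 2, from 2 to 1 for that at day 2 plus VC and from 6 to 10 for DMH-1, and with no filter on low counts from 2 to 4 for the VC difference in the D/KO change to day 4. In the same order, the genes called in all went from 4140 to 2523, 1036 to 810, 2195 to 1979, 1135 to 1910 and 4252 to 4015. The causes were not tested. Of 195 called member results, 156 stayed called without any single library. The counts of members called ranged, with 1 library left out, from 4 to 7 for VC at day 0 in D/KO Fbs (4 without replicate 2 of day 0 plus VC), from 2 to 4 for the VC difference in D/KO Fbs and for the difference between the lines at day 4 (4 without replicate 3 of D/KO day 0), from 1 to 5 for WT 4F day 4 plus VC against day 2 plus VC (1 without replicate 1 of day 2 plus VC), from 2 to 4 for WT 4F day 4 plus VC against day 4 (2 without replicate 1 of day 4), from 0 to 2 for the difference between the lines at day 2 and from 1 to 2 for that at day 2 plus VC (9 libraries each), from 0 to 1 for Repsox (1 without Repsox replicate 2), from 0 to 2 for Vactosertib (control replicate 1, Vactosertib replicates 1 and 2) and from 2 to 4 for A83-01 (control replicate 1, A83-01 replicate 2). Of the 14 member results that leaving out 1 library moved by over 1.5-fold, 13 were of Myh11 and came from replicate 3 of a D/KO group: for VC at day 0 -1.67 became -2.27, for VC at day 2 -4.46 became -5.83, for VC at day 4 -2.85 became -2.23, and for day 2 plus VC -3.62 became -4.98 without replicate 3 of day 2 plus VC and -3.02 without that of day 0 plus VC. Genes called in all moved by over 1.5 times with only the groups compared for VC at day 0 in D/KO Fbs (4140 to 2523), the VC differences (4252 to 2813 in D/KO and 2427 to 3754 in WT 4F Fbs), WT 4F day 4 (3880 to 6400), Vactosertib (2828 to 4317), DMH-1 (1135 to 1910) and skin (5348 to 2591), and with 1 library left out for D/KO day 4 against day 2 (1515 to 970), WT 4F day 2 (1672 to 1067 and 1110), WT 4F day 4 against day 2 (3406 to between 1103 and 2252), the same with VC (3176 to 1731), DMH-1 (1135 to between 619 and 714) and the VC difference between lines at day 0 (2419 to 1547). No paired analysis was possible because the labels give running sample numbers and no replicate numbers that groups share. Since each group has 3 libraries of 1 line, the spread between animals is not measured, and the values of Tagln and Cnn1 carry the unstated strand setting.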

Other observations

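Among the D/KO groups of the time course, replicate 3 was the highest library in 6 of 6 groups for Cnn1, Tpm2 and Myh11. Replicates are numbered in accession order and the labels tie none of them together. Among the 6 WT 4F groups replicate 3 was the highest in 2 for Cnn1, 1 for Tpm2 and 1 for Myh11. These counts were made after the values had been seen.

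Markers of other cells changed as well at D/KO day 4 plus VC against day 0 plus VC. Lower were the mural genes Abcc9 (log2 -5.03), Mcam (-4.11) and Kcnj8 (-4.04), the fibroblast genes Col1a1 (-3.67), Lum (-3.38) and Col1a2 (-2.89), the immune genes Csf1r (-3.39) and Lyz2 (-2.20), the striated muscle actin Acta1 (-4.47) and the endothelial gene Emcn (-2.77). Higher were the endothelial genes Tek (3.65) and Pecam1 (1.76), the cardiac troponin gene Tnnt2 (6.27) and the epithelial gene Cdh1, which went from a mean of 0.039 to 44.3 CPM. Not all mural genes fell. Without Pdgfrb the other 6 summed to 214 to 259 CPM, from 71.6 to 93.4 CPM, with Cspg4 at a mean of 222 CPM. The keratins Krt14 and Krt5 went from 0 in all day 0 plus VC libraries to means of 367 and 0.503 CPM. The 7 keratinocyte markers summed to 64.9 to 78.5 CPM at D/KO day 4 without VC and 445 to 566 CPM with it, against 40.6 to 45.1 and 64.3 to 85.5 CPM in WT 4F Fbs.

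With A83-01 the Schwann cell gene S100b (1.94), the macrophage gene Adgre1 (2.31), Lyz2 (0.77), Dsp (2.39), Notch3 (1.23) and Rgs5 (0.96) were higher than in the control. Acta1 (-1.65), the endothelial genes Cdh5 (-1.85), Kdr (-1.83) and Pecam1 (-1.18), and Fap (-1.30), Col1a1 (-1.11) and Col3a1 (-1.06) were lower, and Abcc9 went from a mean of 0.97 CPM to 0.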
